A study of Mus musculus with 12 samples.

Results

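The 10 genes described here encode enzymes that make serine and pass its carbon through folate. They were taken from the deposited count table by symbol (Phgdh, Psat1, Psph, Shmt1, Shmt2, Mthfd1, Mthfd2, Mthfd1l, Aldh1l2 and Tyms), out of 39017 genes listed. Each symbol had 1 row, and all 10 passed the filter on low counts that left 19370 genes for testing. RNA came from 12 bulk mammary tumours. They were grown from NIC, an ErbB2-positive murine breast cancer line without p66ShcA, which is the long isoform of the adaptor protein ShcA. The 4 groups of 3 tumours were p66Low parental (NIC cells as they are), p66High parental (NIC cells made to overexpress p66ShcA constitutively), and p66Low aggressive and p66High aggressive, the same 2 populations after 2 rounds of selection in the mammary fat pad and explantation. Per the series' design text, both explanted populations grew faster and metastasised more than their parents. Female FVB/N mice aged 8 to 12 weeks received 250000 cells with matrigel in the fourth fat pad. The aggressive tumours of each p66 level came from 1 explanted population, so a difference after selection is one between 2 cell populations. The same holds for a difference between the parental groups.

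Serine is made from a glycolytic intermediate by Phgdh, Psat1 and Psph acting in that order. Shmt1 in the cytosol and Shmt2 in mitochondria split serine into glycine and a carbon unit carried by tetrahydrofolate. Mitochondrial Mthfd2 and Mthfd1l oxidise that unit and release it as formate, cytosolic Mthfd1 takes formate up again for purine and thymidylate synthesis, mitochondrial Aldh1l2 oxidises 10-formyl-tetrahydrofolate to carbon dioxide with production of NADPH, and Tyms makes thymidylate. Several of these enzymes are highly expressed in breast tumours, and many are transcribed under ATF4, MYC or cell cycle control.

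Total counts ranged from 17.4 to 76.1 M per tumour, and each of the 10 genes had at least 223 counts in each tumour. The label check held for Shc1, whose transcripts include p66ShcA. It lay between 59.0 and 69.9 CPM (counts scaled to a TMM-normalised library of 1 M) in the 6 p66Low tumours. In the 6 p66High tumours it lay between 223 and 774 CPM. The value of 774 CPM was that of p66High aggressive replicate 3, and the other p66High tumours had at most 271 CPM. Of 10 epithelial markers, Epcam was at 572 CPM or more in every tumour and Krt8 and Krt18 were also abundant, while Krt19 had group means of only 1.06 to 6.26 CPM. Cldn3 was lower in p66High aggressive tumours (mean 17.7 CPM, against 152 CPM in p66High parental ones) and Cldn4 in p66Low parental tumours (20.6 CPM). A list of 13 lymph node and B cell markers summed to 181 and 251 CPM in p66Low aggressive replicates 1 and 2 and to 55.4 CPM in p66High parental replicate 3, against at most 2.54 CPM in the other 9 tumours. In bulk tumours, fewer cells of a type and less RNA per cell cannot be told apart. Whether the 3 tumours of a group grew in 3 mice is not stated in the labels, and replicates 1 and 2 of both p66High groups share a number in their titles, so the p-values reflect the spread between the samples only.

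Psat1 was the only member that passed the test in any comparison (edgeR's quasi-likelihood test, adjusted p under 0.05 over all genes). It was lower in p66Low aggressive tumours, by 1.37-fold against p66Low parental and by 1.44-fold against p66High aggressive tumours. The mitochondrial enzymes Aldh1l2, Mthfd1l and Mthfd2 had the largest log2 differences between parental groups, from -1.06 to -0.66 with p66High lower, but these did not pass. Shmt1 and Tyms varied least, by 1.44-fold and 1.49-fold between the lowest and the highest of 12 tumours.

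**Figure D1:**
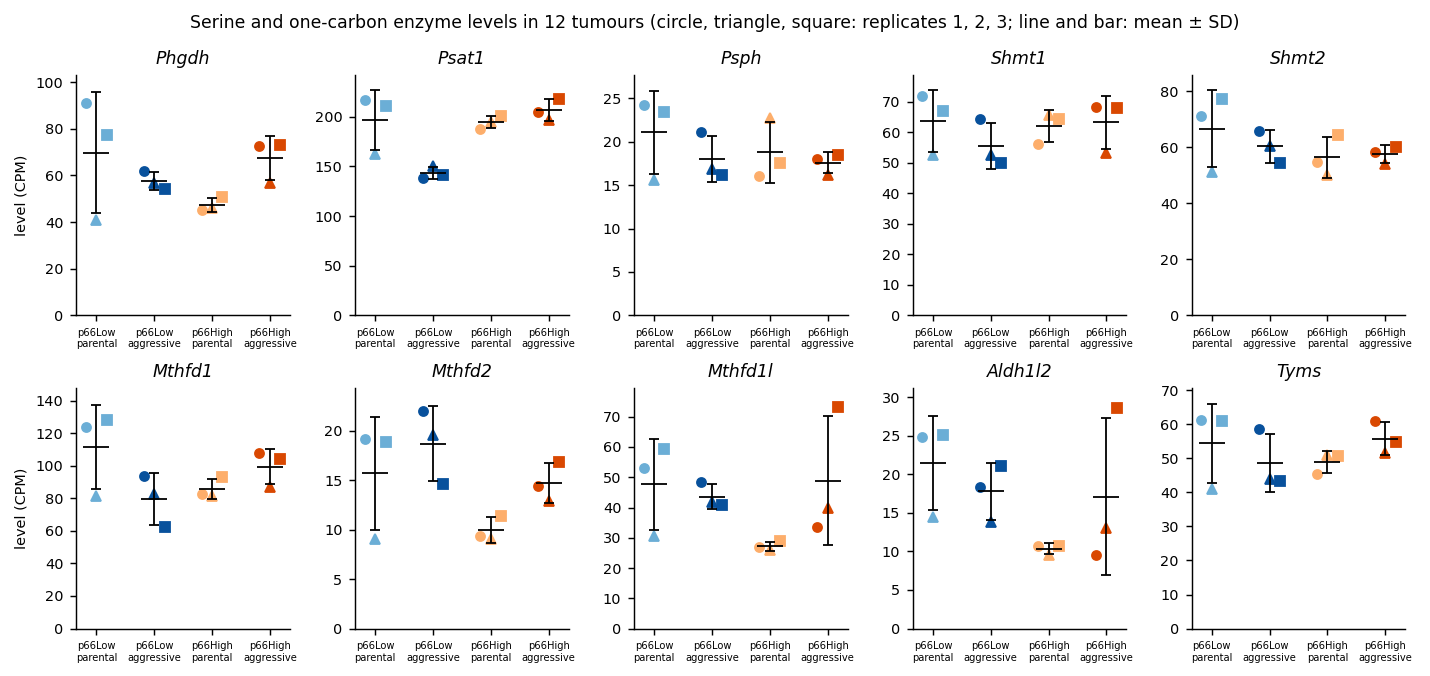
Level of each enzyme gene (vertical axis, CPM, from 0) in 12 tumours of 4 groups; markers are replicates, and the line and bar are the mean and SD of 3 tumours. Psat1 in the 3 p66Low aggressive tumours, at 138 to 150 CPM, lies below the 9 other tumours, while p66Low parental replicate 2 (triangle) is the lowest of its group for each of the 10 genes.

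Per kilobase of exon, which allows genes to be compared, Psat1 was the most abundant of the 10, with a mean level of 43.6 CPM per kb over 12 tumours, at percentile 93.3 of the genes tested. Phgdh (24.3 CPM per kb), Mthfd1 (21.1), Shmt2 (19.4) and Shmt1 (15.7) followed, all above percentile 78. Mthfd1l had 9.43 and Tyms 8.54 CPM per kb. Psph (4.36), Mthfd2 (4.23) and Aldh1l2 (2.22 CPM per kb, percentile 34.7) were the least abundant. On this measure the first and second enzymes of serine synthesis stood above the third, and the folate enzymes of the cytosol and Shmt2 above Mthfd2 and Aldh1l2 of the mitochondrion. The level of Phgdh is uncertain because of copies of the gene, as described below. The ratio of the highest to the lowest tumour was widest for Aldh1l2 (3.02), Mthfd1l (2.84) and Mthfd2 (2.43).

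The parental tumours came from 2 cell populations, NIC cells as they are and NIC cells made to overexpress p66ShcA. Between these groups 0 of 10 members passed the test, where 8.08% of all genes did. The log2 difference was negative for 10 of 10, with a median of -0.31 against -0.01 over all genes tested. Unadjusted p was under 0.05 for 4 of 10 (Phgdh, Mthfd2, Mthfd1l and Aldh1l2), against 22.9% of all genes. By DESeq2, 2 members passed (Mthfd1l, adjusted p = 0.0412, and Aldh1l2, adjusted p = 0.0261), and by limma-voom 0. Tumours of the groups did not overlap for 2 members, both lower in p66High (Mthfd1l and Aldh1l2), as were 14.2% of all genes. The parental lines also differed in the median of whole chromosomes, by 0.44 for chromosome 1 and by -0.41 for chromosome 15, neither of which carries a member.

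After selection of p66Low cells, 1 of 10 members passed (Psat1, lower), against 16.6% of all genes, and 9 of 10 log2 differences were negative with a median of -0.22. Unadjusted p was under 0.05 for 2 (Psat1 and Mthfd1), against 30.9% of all genes. Only Psat1 had groups without overlap, lower in aggressive tumours, as were 16.6% of all genes. After selection of p66High cells, 0 of 10 passed by edgeR and limma-voom, against 5.94% of all genes by edgeR, and 1 by DESeq2 (Mthfd1l, adjusted p = 0.0354). There the sign was turned: 9 of 10 differences were positive with a median of 0.20. Unadjusted p was under 0.05 for 2 (Phgdh and Mthfd1l), against 22.7% of all genes, and 4 members were higher without overlap (Phgdh, Mthfd2, Mthfd1l and Tyms), as were 16.5% of all genes. Between aggressive tumours, 1 of 10 passed (Psat1, higher in p66High), against 21% of all genes, and 6 of 10 differences were positive with a median of 0.18. Psat1 was also the only member with an unadjusted p under 0.05, against 33.4% of all genes, and the only one higher without overlap, as were 19.4% of all genes. In none of the 4 comparisons did the share of members called exceed that of all genes. Each group enters 2 of these comparisons, so their values are not independent.

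**Figure D2:**
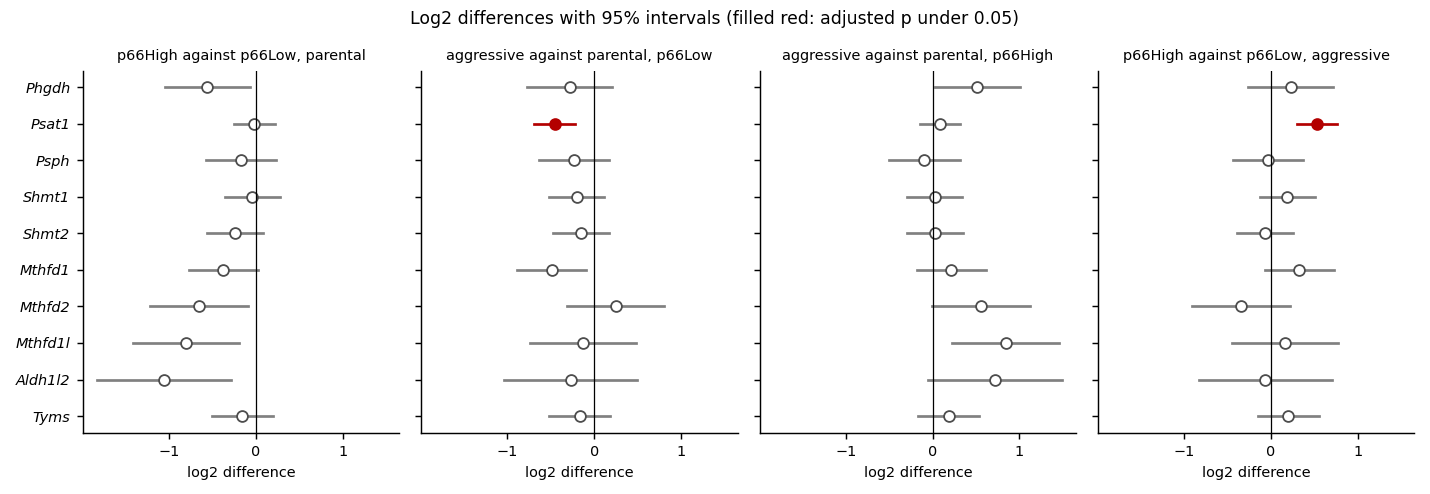
Log2 difference (horizontal axis) of each enzyme gene in 4 comparisons, with its 95% interval; filled red circles passed the adjusted threshold. Only Psat1 is filled, at -0.46 in p66Low selection and 0.53 between aggressive tumours, and the widest intervals are those of Aldh1l2 and Mthfd1l.

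Psat1 (ENSMUSG00000024640, GRCm38 chr19:15904678-15947337, minus strand), phosphoserine aminotransferase, catalyses the second step of serine synthesis. It was measured at 217, 162 and 210 CPM in p66Low parental replicates 1 to 3, and at 188, 195 and 200 CPM in p66High parental tumours. The p66Low aggressive tumours had 138, 150 and 141 CPM, and the p66High aggressive tumours 205, 197 and 218 CPM. The 3 p66Low aggressive tumours were thus the lowest of 12, and the other 3 groups overlapped one another.

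In p66Low tumours, Psat1 fell by 0.46 after selection on the log2 scale (SE 0.11, edgeR adjusted p = 0.0144), from 197 ± 29.9 to 143 ± 6.36 CPM (SD, n = 3 each). Between aggressive tumours it was higher in p66High by 0.53 (SE 0.11, edgeR adjusted p = 0.00527), at 207 ± 10.9 CPM (SD, n = 3). After selection of p66High cells the difference was 0.09, with a 95% interval from -0.14 to 0.32. The parental groups differed by -0.02, with an interval from -0.25 to 0.21. The effect of selection differed between the p66 levels by 0.55 (interaction, SE 0.15, edgeR adjusted p = 0.0369), where 12.4% of all genes passed. Over all 4 groups together Psat1 was again the only member past the threshold (edgeR adjusted p = 0.0108), against 30.7% of all genes.

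The difference between aggressive tumours passed in each of 12 fits that left out 1 tumour, with adjusted p of at most 0.0285. The fall after p66Low selection did not pass without p66Low parental replicate 1 (adjusted p = 0.0676), p66Low parental replicate 3 (0.0729) or p66Low aggressive replicate 1 (0.0632). Nor did it pass with scaling by library size (-0.35, edgeR adjusted p = 0.0537) or in a fit of only the 6 tumours compared (-0.43, edgeR adjusted p = 0.0687). The interaction passed in 2 of 12 fits that left out 1 tumour. It did not pass with the tumours that share a title number summed (0.53, adjusted p = 0.103), with scaling by library size (0.43, adjusted p = 0.101), without a filter (0.54, adjusted p = 0.055) or without the 3 lymph node rich libraries (0.60, adjusted p = 0.236). Beside these results, the lymph node and B cell list was high in p66Low aggressive replicates 1 and 2 and near 0 in replicate 3, whose Psat1 level of 141 CPM lay between the other two. T and NK cell markers (14 genes) summed to 121, 201 and 51.4 CPM in the p66Low aggressive tumours and to at most 15.3 CPM in the p66High aggressive ones. Without the 3 lymph node rich libraries, the difference between aggressive tumours was as large (0.56), with an adjusted p of 0.122 and only 1 p66Low aggressive tumour left, which is assumed to vary like the other groups. The difference after p66Low selection was then -0.48 (adjusted p = 0.211).

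Phgdh (ENSMUSG00000053398, GRCm38 chr3:98313170-98339990, minus strand), phosphoglycerate dehydrogenase, catalyses the first step. The p66Low parental tumours had 91.1, 41.0 and 77.3 CPM, and the p66High parental tumours 45.4, 45.9 and 50.6 CPM. After selection it was 61.8, 56.6 and 54.2 CPM in p66Low tumours and 72.7, 56.6 and 73.1 CPM in p66High tumours. Of the p66Low parental tumours, 2 were the highest of all 12 and the other was the lowest of all. The parental groups differed by -0.56 (SE 0.22, edgeR adjusted p = 0.156), and the p66High groups by 0.51 after selection (SE 0.22, edgeR adjusted p = 0.201). Without p66Low parental replicate 2, the parental difference was -0.83 (SE 0.13) and passed the test (edgeR adjusted p = 0.00329). It passed in only 1 of 12 fits without 1 tumour. Over these fits it ranged from -0.83 to -0.33, with edgeR adjusted p up to 0.464.

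Phgdh levels are uncertain, because reads may be shared with copies of the gene. A search of GENCODE M21 transcripts found 18 other genes with at least 90% identity over at least 400 bases of the Phgdh transcript, 17 of them processed pseudogenes, and 6 of the 18 were in the count table. One of them, ENSMUSG00000082280 (listed in the table as Gm7901, GRCm38 chr3:65613589-65615183, plus strand), is 96.2% identical over 1596 bases. Its counts summed to 82.1% of those of Phgdh. GENCODE M21 names it Gm5847 and uses Gm7901 for another Phgdh pseudogene, on chromosome 8, which is not in the count table. Here Gm7901 means the gene on chromosome 3. The first 100 coding bases of Phgdh and the matching bases of this processed pseudogene are shown. They differ at 1 base, the capital letter, so within this stretch only reads that cover it can be told apart.
Phgdh: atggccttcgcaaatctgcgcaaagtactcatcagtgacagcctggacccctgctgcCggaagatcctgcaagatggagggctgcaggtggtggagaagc
Gm7901: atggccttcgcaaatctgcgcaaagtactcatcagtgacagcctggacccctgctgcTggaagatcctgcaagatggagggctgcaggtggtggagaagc

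Gm7901 had the closest pattern to Phgdh of the non-member genes (Pearson r = 0.989 over 12 tumours, log2 CPM). Its own log2 differences were -0.50 between parental groups and 0.47 after selection of p66High cells, near those of Phgdh. The authors' treatment of multi-mapping reads is not given in the sources used. With the 7 rows summed, the parental difference was -0.54 and that after p66High selection 0.50, neither past the threshold. The only such copy of Psat1 in the table had counts equal to 0.376% of those of Psat1.

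Psph (ENSMUSG00000029446, GRCm38 chr5:129765558-129787449, minus strand), phosphoserine phosphatase, completes serine synthesis. Its level ranged from 15.5 to 24.3 CPM, and the 4 group means from 17.6 to 21.1 CPM. Neighbouring groups overlapped, and the differences in the 4 comparisons lay between -0.23 and -0.03. The exons of Psph share 452 bases, 10.4% of its exon length, with Cct6a on the opposite strand, whose own differences were between -0.20 and 0.23.

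Of the serine hydroxymethyltransferases, cytosolic Shmt1 (ENSMUSG00000020534, GRCm38 chr11:60788104-60811718, minus strand) had group means between 55.5 CPM in p66Low aggressive and 63.7 CPM in p66Low parental tumours. Mitochondrial Shmt2 (ENSMUSG00000025403, GRCm38 chr10:127517123-127522444, minus strand) had means between 56.4 CPM in p66High parental and 66.7 CPM in p66Low parental tumours. The largest difference of either gene was -0.24, for Shmt2 between parental groups (interval -0.56 to 0.08). For both genes each pair of groups compared overlapped. Of the exon length of Shmt1, 4.74% is shared with Smcr8 on the opposite strand.

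Mthfd1 (ENSMUSG00000021048, GRCm38 chr12:76255298-76319803, plus strand), the trifunctional cytosolic folate enzyme, had levels of 124, 81.5 and 128 CPM in p66Low parental tumours and 82.6, 81.6 and 92.9 CPM in p66High parental tumours. After selection its levels were 93.6, 82.3 and 62.2 CPM in p66Low and 108, 87.0 and 104 CPM in p66High tumours. The lowest value was that of p66Low aggressive replicate 3. After p66Low selection the difference was -0.49 (SE 0.18, edgeR adjusted p = 0.088), and the interaction was 0.70 (SE 0.26, edgeR adjusted p = 0.0951). Without p66Low parental replicate 2, both passed, at -0.65 (adjusted p = 0.0248) and 0.86 (adjusted p = 0.0306). Each passed in only 1 of 12 fits without 1 tumour. Over these fits the difference ranged from -0.65 to -0.35 (edgeR adjusted p up to 0.323). The interaction ranged from 0.56 to 0.86 (edgeR adjusted p up to 0.248).

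Mthfd2 (ENSMUSG00000005667, GRCm38 chr6:83305691-83325908, minus strand), the mitochondrial methylenetetrahydrofolate dehydrogenase and cyclohydrolase, had levels of 19.1, 9.05 and 18.8 CPM in p66Low parental tumours and 9.31, 9.08 and 11.4 CPM in p66High parental tumours. In aggressive tumours it had 22.0, 19.5 and 14.6 CPM with p66Low and 14.4, 12.8 and 16.9 CPM with p66High. It was the only member with a positive difference after p66Low selection (0.25, interval -0.31 to 0.81). The parental difference was -0.66 (SE 0.26, edgeR adjusted p = 0.151). Without p66Low parental replicate 2 that difference was -0.93 (SE 0.19) and passed (edgeR adjusted p = 0.0128). It passed in only 1 of 12 fits without 1 tumour. Over these fits it ranged from -0.93 to -0.49, with edgeR adjusted p up to 0.411.

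Mthfd1l (ENSMUSG00000040675, GRCm38 chr10:3973118-4167081, plus strand), the mitochondrial synthetase that releases formate, had levels of 52.9, 30.6 and 59.3 CPM in p66Low parental tumours. All 3 p66High parental tumours were lower, at 26.9, 25.9 and 28.8 CPM. In p66Low aggressive tumours it had 48.4, 41.7 and 40.8 CPM, and in p66High aggressive tumours 33.7, 39.7 and 73.4 CPM. The group of p66High parental tumours was the lowest and the tightest (SD 1.52 CPM), and that of p66High aggressive tumours the widest (SD 21.4 CPM). The parental difference was -0.81 (SE 0.28, edgeR adjusted p = 0.105). It passed without p66Low parental replicate 2 (-1.04, adjusted p = 0.0295) and without p66High aggressive replicate 3 (-0.81, adjusted p = 0.0342). Those were the only 2 of 12 such fits in which it passed. Over the 12 it ranged from -1.04 to -0.62, with edgeR adjusted p up to 0.324. After p66High selection the difference was 0.84 (SE 0.28, edgeR adjusted p = 0.102).

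Aldh1l2 (ENSMUSG00000020256, GRCm38 chr10:83487450-83534140, minus strand), the mitochondrial 10-formyltetrahydrofolate dehydrogenase, followed Mthfd1l in its pattern. The p66Low parental tumours had 24.8, 14.4 and 25.1 CPM, against 10.8, 9.50 and 10.7 CPM with p66High. In aggressive tumours it was 18.4, 13.9 and 21.1 CPM with p66Low and 9.49, 13.1 and 28.6 CPM with p66High, so that the highest and the lowest of all 12 tumours were in 1 group. The parental groups did not overlap and differed by -1.06, the largest difference of any member (SE 0.35, edgeR adjusted p = 0.0945). It passed without p66High aggressive replicate 3 (adjusted p = 0.0173) and in a fit of the 6 parental tumours alone (adjusted p = 0.0241). Of 12 fits without 1 tumour it passed in only 1. Over these fits it ranged from -1.27 to -0.92, with edgeR adjusted p up to 0.252. Of its exon length, 14.1% (1056 bases) is shared with D10Wsu102e on the opposite strand, whose parental difference was -0.13.

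Tyms (ENSMUSG00000025747, GRCm38 chr5:30058202-30073617, minus strand), thymidylate synthase, ranged from 41.1 to 61.4 CPM. After p66High selection its 3 tumours (61.1, 51.6 and 54.8 CPM) were all above the 3 parental ones (45.3, 50.9 and 50.7 CPM), with a difference of 0.19 (SE 0.16, edgeR adjusted p = 0.526). Its other 3 pairs of groups overlapped.

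The interaction of p66 level and selection was positive for 10 of 10 members, with a median of 0.45 against 0.05 over all genes tested, and 4 had an unadjusted p under 0.05 (Phgdh, Psat1, Mthfd1 and Mthfd1l) against 28.5% of all genes. The sign was as uniform in the list of 20 DNA replication and cell cycle genes, positive for 20 of 20 with a median of 0.56. After Psat1, the next smallest p was that of Mthfd1. For Mthfd1l (0.97) and Aldh1l2 (0.99) the differences were larger than for Psat1, with SEs of 0.39 and 0.50. Scaling by library size alone lowered the median of the interaction over all genes by 0.11 and that of the members to 0.33. The same scaling raised the median of p66Low selection over all genes by 0.11, and there 73.6% of called genes were higher, against 57.7% with TMM. With it the members' median in p66Low selection was -0.10, and that of all genes 0.09.

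In 3 of the 4 groups, 1 tumour was the lowest for most members. In p66Low parental tumours, replicate 2 was the lowest of 3 for 10 of 10 members, a position it held for 38.5% of all genes. In aggressive tumours, p66Low replicate 3 was the lowest for 8 of 10 (33.6% of all genes) and p66High replicate 2 for 8 of 10 (31.5%). In p66High parental tumours the lowest was replicate 1 for 5 members and replicate 2 for 5. Genes of DNA replication and the cell cycle (a list of 20) had the same lowest tumours in those 3 groups: p66Low parental replicate 2 was the lowest for 20 of 20, p66Low aggressive replicate 3 for 20 of 20 and p66High aggressive replicate 2 for 19 of 20. The highest tumours differed in some groups only. In p66High aggressive tumours replicate 3 was the highest for 7 members (34.8% of all genes) and replicate 1 for 18 of the 20 cell cycle genes. In p66Low parental tumours replicate 1 was the highest for 6 members (31.8%) and replicate 3 for 16 cell cycle genes. In p66Low aggressive tumours replicate 1 was the highest for 8 members (27.5%) and for 20 cell cycle genes. In p66High parental tumours replicate 3 was the highest for 6 members (30%) and for 16 cell cycle genes. The summed level of that list was 1176 CPM in p66Low parental replicate 2 and between 1325 and 2213 CPM in the other 11 tumours. The part of these shared lowest tumours in the differences between groups was not tested.

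**Figure D3:**
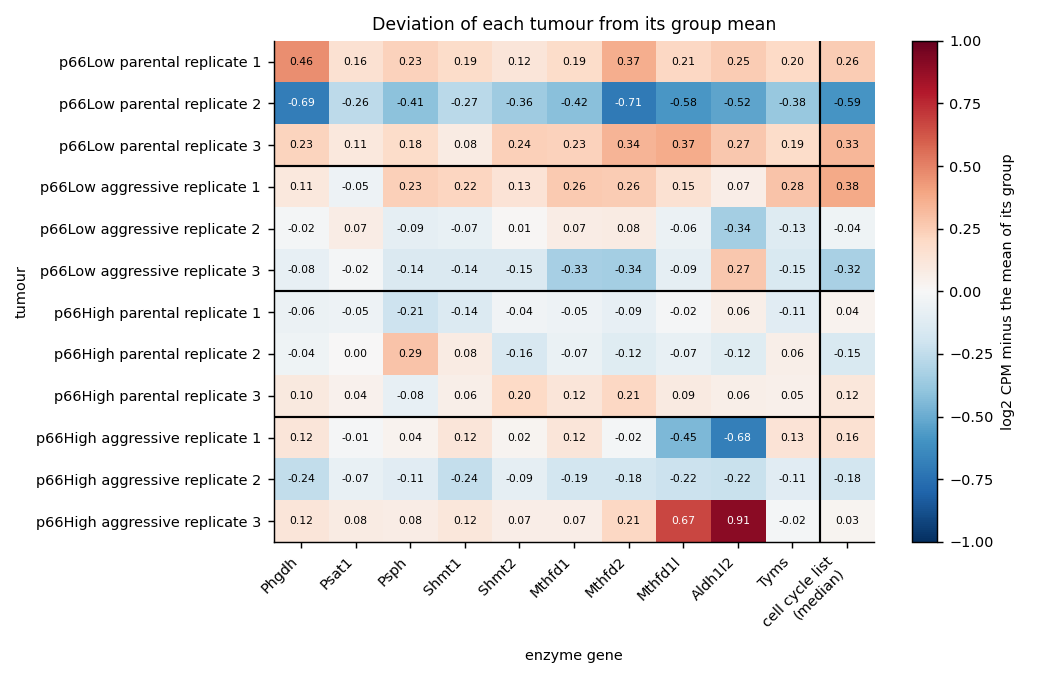
Deviation of each tumour (rows) from the mean log2 CPM of its group for each enzyme gene (columns), with the median of 20 DNA replication and cell cycle genes in the last column; blue is below and red above the group mean. The row of p66Low parental replicate 2 is blue throughout, from -0.71 for Mthfd2 to -0.26 for Psat1, beside -0.59 for the cell cycle list, and in p66High aggressive replicate 3 Mthfd1l (0.67) and Aldh1l2 (0.91) stand apart from the other 8 genes.

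Over 12 tumours, the 45 pairs of members had a median Pearson r of 0.62 (log2 CPM), from -0.14 to 0.91. The points share library and depth. Of the pairs, 6 had r over 0.8: Mthfd1l with Aldh1l2 (0.91), Tyms with Shmt1 (0.87), Mthfd1 (0.84) and Phgdh (0.82), Mthfd1 with Shmt1 (0.82) and Mthfd1l with Mthfd2 (0.82). The pairs did not all divide by compartment: Mthfd1l had a higher r with cytosolic Phgdh (0.78) than with mitochondrial Shmt2 (0.63), and Tyms had 0.68 with Shmt2. Psat1 had an r of at most 0.69 (Mthfd1), of 0.43 with Phgdh, the enzyme before it, and of -0.14, the lowest of all pairs, with Mthfd2. The non-member genes closest to Psat1 were Pcyt2 (r = 0.95), an enzyme of phosphatidylethanolamine synthesis, and 0610007N19Rik (r = 0.95).

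Ratios of 2 enzymes within a library do not depend on scaling, and are given as a description with no test. The ratio of Psat1 to Phgdh, per kilobase, was 1.39, 2.32 and 1.59 for the p66Low parental group, against 2.42, 2.48 and 2.32 with p66High. In aggressive tumours it was 1.31, 1.55 and 1.52 with p66Low and 1.65, 2.03 and 1.75 with p66High. All p66High aggressive tumours were above the p66Low aggressive ones, and the p66High tumours were lower after selection than before. Between parental groups the highest p66Low and the lowest p66High tumour met at 2.32. This ratio carries the uncertainty of Phgdh.

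The ratio of mitochondrial Mthfd1l to cytosolic Mthfd1 was 0.318 ± 0.008 in p66High parental tumours, below all 3 p66Low parental tumours (0.423 ± 0.044). It was higher in p66Low aggressive tumours (0.561 ± 0.084) than in p66Low parental ones without overlap, and spread from 0.314 to 0.707 among p66High aggressive tumours (SD, n = 3 each). The ratio of Shmt2 to Shmt1 was lower in p66High aggressive (1.15 ± 0.107) than in p66Low aggressive tumours (1.36 ± 0.080) without overlap, and overlapped in the other 3 comparisons.

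**Figure D4:**
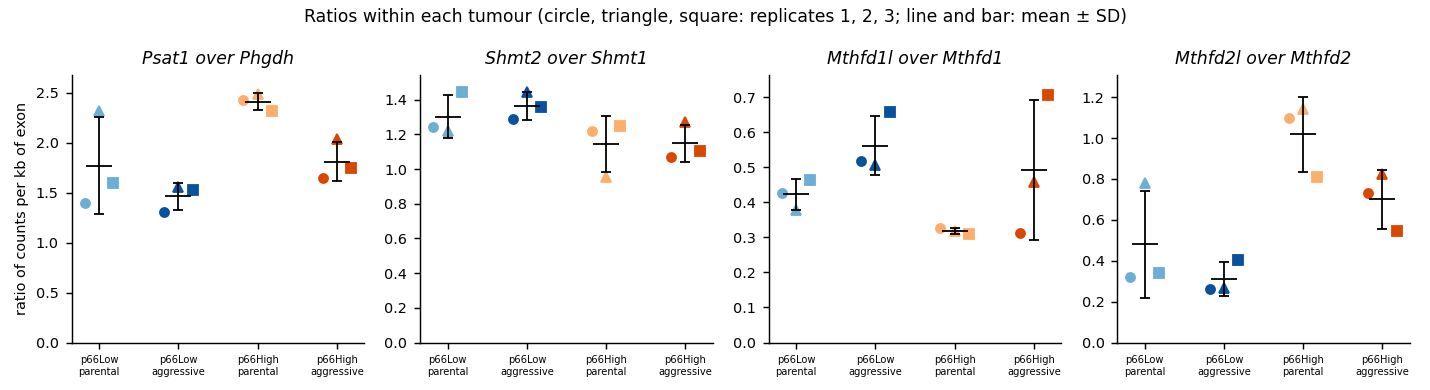
Ratios of counts per kilobase of exon (vertical axis, from 0) of 4 enzyme pairs in 12 tumours; markers are replicates, and the line and bar are the mean and SD of 3 tumours. Mthfd2l over Mthfd2 is higher in p66High than in p66Low tumours at both stages and Psat1 over Phgdh in aggressive tumours, with p66Low parental replicate 2 (triangle) the highest of its group in both ratios.

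Mthfd2l, which encodes the second mitochondrial dehydrogenase and cyclohydrolase, was among 16 genes of folate transport and other folate enzymes set beside the members. It had 11.7, 13.5 and 12.1 CPM in the p66Low parental group and 19.5, 19.8 and 17.6 CPM in the p66High one, a rise of 0.61 (SE 0.11, edgeR adjusted p = 0.00688). Between aggressive tumours it was higher in p66High by 0.85 (SE 0.11, edgeR adjusted p = 0.000689). The ratio of Mthfd2l to Mthfd2 was 0.480 ± 0.261 in p66Low and 1.02 ± 0.182 in p66High parental tumours, and 0.311 ± 0.082 and 0.700 ± 0.142 in the aggressive ones (SD, n = 3 each). The p66High and p66Low tumours did not overlap at either stage.

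Both calls of Mthfd2l held without any 1 tumour and without the 3 lymph node rich libraries. Of 54 calls of named genes in this and the following lists, the interaction included, 30 were lost in at least 1 of the 12 fits that left out a tumour, and 39 without the 3 lymph node rich libraries, where 1 p66Low aggressive tumour was left; none changed sign. Of the 15 tested genes of that folate list, 1 rose in p66High parental tumours (Mthfd2l). After p66Low selection 1 rose, Mthfs (0.65), which salvages 5-formyltetrahydrofolate, and 2 fell, Fpgs (-0.48), the folate polyglutamylase, and Mtrr (-0.44), which reactivates methionine synthase. None passed after p66High selection. Between aggressive tumours the genes higher in p66High included Mthfd2l and Mtrr (0.40), and those lower included Mthfs (-0.69). The list's medians were -0.19, -0.17, -0.03 and 0.04 in the 4 comparisons, against -0.01, -0.02, 0.00 and 0.02 over all genes. The 4 genes of glycine cleavage did not pass in any of the 4 comparisons.

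Of 14 tested genes that carry or use serine and glycine, 3, 1, 1 and 3 passed in the 4 comparisons, against 8.08%, 16.6%, 5.94% and 21% of all genes. Slc38a1, a neutral amino acid transporter, was at 57.0, 37.5 and 39.9 CPM in p66Low aggressive tumours and at 4.2 to 9.6 CPM in the other 9, a rise of 2.75 after p66Low selection (SE 0.31, edgeR adjusted p = 0.000393). In p66Low aggressive replicate 3 the lymph node list was near 0, but T and NK cell markers summed to 51.4 CPM, against at most 15.3 CPM in p66High aggressive tumours, and their part in the rise was not tested. Without the 3 lymph node rich libraries the rise was 2.58 (edgeR adjusted p = 0.00474). Between aggressive tumours it was lower in p66High by -2.84, together with Slc1a5 (-1.23) and Sptlc2 (-0.32), which starts sphingolipid synthesis from serine. Slc1a5 lost its call in 10 of 12 fits without 1 tumour, and without the 3 libraries its difference was -0.06 (adjusted p = 0.961) and Sptlc2 did not pass (adjusted p = 0.138). In p66High parental tumours 3 of the 14 were lower: Cth (-1.47) and Cbs (-1.51), the enzymes of transsulphuration, and Slc38a2 (-0.64), which was higher after p66High selection (0.53). The call of Cbs, at means of 0.94 and 0.33 CPM, was lost in 11 of 12 fits without 1 tumour, and the later rise of Slc38a2 in 9. The medians of this list were -0.08, -0.16, 0.21 and 0.02. Slc38a1 and Slc38a2 lie on chromosome 15, where the median of 714 genes was -0.41 between parental groups and -0.31 after p66Low selection.

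Of 26 genes of ATF4 and its targets, 1 passed between parental groups (Asns, asparagine synthetase, -0.69) and 8 after p66Low selection (3 higher, 5 lower). After p66High selection 2 passed, and between aggressive tumours 5 (3 higher, 2 lower). The shares of all genes were 8.08%, 16.6%, 5.94% and 21%. For p66Low selection, in which Psat1 fell, only the genes with the smallest p of the 8 are named. Of these the amino acid transporter genes Slc7a5 (-1.86) and Slc3a2 (-0.69) and the stress gene Sesn2 (-0.95) fell. Aars, alanyl-tRNA synthetase, rose (0.44), as 1 of the 3 higher. The calls of Slc3a2 and Aars were each lost in 2 of 12 fits without 1 tumour. Between aggressive tumours Sesn2 (1.07) and Cebpb (0.68) were higher in p66High, as Psat1 was, and Asns (-0.83) and Slc7a11 (-1.53) were lower. Without the 3 lymph node rich libraries Slc7a11 was at -0.48 (adjusted p = 0.576), Asns at -0.99 (adjusted p = 0.0553) and Cebpb at 0.48 (adjusted p = 0.148). Atf4 itself did not pass in any of the 4 comparisons (differences from -0.50 to 0.01). The medians of this list were -0.24, -0.03, 0.14 and -0.01. None of the 4 MYC family genes tested passed in these comparisons.

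Of the pathways that use one-carbon units, de novo purine synthesis (13 genes) had 1 gene higher in p66High parental tumours (Adss, 0.55), none past the threshold after p66Low selection and 1 lower after p66High selection (Gart, which uses 10-formyltetrahydrofolate, -0.94). Between aggressive tumours Atic (0.61), Adss (0.30) and Paics (0.33) were higher in p66High and Gart (-0.71) was lower. Without the 3 lymph node rich libraries Gart was at -0.33 (adjusted p = 0.371) and Adss at 0.20 (adjusted p = 0.487), and Paics lost its call in 9 of 12 fits without 1 tumour. Adss and Atic lie on chromosome 1, where the median of 1133 genes was 0.44 between parental and 0.37 between aggressive groups. For the chromosomes that carry the members, such medians lay between -0.07 and 0.08. Pyrimidine and deoxynucleotide synthesis (12 genes) had 0, 2, 0 and 3 genes past the threshold. Cmpk1 (0.53) and Ctps (0.60) rose after p66Low selection, and Dtymk (0.85, chromosome 1), which acts on the product of Tyms, was higher in p66High aggressive tumours, where Cmpk1 (-0.78) and Ctps2 (-0.34) were lower. Without the 3 libraries the rise of Ctps was 0.33 (adjusted p = 0.456). The medians of the purine list were -0.07, -0.22, 0.04 and 0.13, and those of the pyrimidine list -0.17, -0.17, 0.08 and 0.06. Gart lies on chromosome 16, and Cmpk1, Ctps, Sesn2 and Mtap on chromosome 4. The medians of these chromosomes are not given here, and whether these genes moved with their neighbours was not tested.

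In the methionine cycle (9 genes tested), Ahcy, which hydrolyses S-adenosylhomocysteine, fell after p66Low selection (-0.40, lost in 11 of 12 fits without 1 tumour), and Mtap was higher in p66High aggressive tumours (0.62). Mat1a passed in both comparisons at very low levels: its mean was 0.0451 CPM in p66Low parental and 0.651 CPM in p66Low aggressive tumours, and it had 0 counts in all 3 p66High aggressive tumours, where 3 counts, the limit that a count of 0 allows, are worth 0.0761 to 0.129 CPM. The medians of this list were 0.03, -0.03, -0.07 and -0.01. Of the 20 DNA replication and cell cycle genes, 0 passed in the first 3 comparisons and 1 between aggressive tumours (Mcm6, on chromosome 1, 0.69, lost in 10 of 12 fits without 1 tumour). Their differences were positive for 2 of 20 between parental groups, 6 after p66Low selection, 20 after p66High selection and 19 between aggressive tumours, with medians of -0.29, -0.10, 0.42 and 0.23.

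Promoter sequence was available for 9 of the 10 members in the RefSeq table of GRCm38.p6, as the 250 bases before each transcript start. The ATF4 composite element TGATGNAA was in none of the members' windows, and 3.45% of all 32851 windows of that length held it on either strand. The MYC E-box CACGTG was in that of Tyms (6.02% of all windows). The letters TTTNNCGC, a loose form of the E2F site in which N is any base, were in that of Psph as TTTACCGC (4.28%). The CCAAT box was in 6 of 9 members (Phgdh, Psat1, Psph, Shmt1, Mthfd1 and Mthfd2). Counted by window it was in 6 of 10, since Psat1 has 2 windows and window 2 holds no match. Of all windows 33.9% held it, a base rate that short letters reach readily. No 2 of these motifs overlapped in a member's window. A match is a description of the letters, and no match says only that they are not in this window.

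The windows of 3 members are shown 5′ to 3′ along the gene's strand with motif matches in capitals, as examples of a window with the CCAAT box, one with the E-box and one with neither. Psat1 (window 1, chr19:15925060-15925309, minus strand) holds the CCAAT box at 36 and at 6 bases before the start. Tyms (chr5:30073626-30073875, minus strand) holds the E-box at 61 bases, and Mthfd1l (chr10:3972825-3973074, plus strand) holds none of the 4 motifs.
Psat1: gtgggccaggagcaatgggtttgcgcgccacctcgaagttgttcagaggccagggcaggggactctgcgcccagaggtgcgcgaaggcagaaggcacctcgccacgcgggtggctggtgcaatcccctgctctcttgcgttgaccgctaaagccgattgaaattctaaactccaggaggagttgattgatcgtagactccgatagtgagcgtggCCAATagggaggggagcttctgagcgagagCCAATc
Mthfd1l: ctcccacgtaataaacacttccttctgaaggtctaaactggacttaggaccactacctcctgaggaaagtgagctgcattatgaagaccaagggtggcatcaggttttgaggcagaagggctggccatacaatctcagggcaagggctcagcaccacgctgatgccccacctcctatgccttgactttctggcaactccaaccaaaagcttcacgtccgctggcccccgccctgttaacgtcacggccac
Tyms: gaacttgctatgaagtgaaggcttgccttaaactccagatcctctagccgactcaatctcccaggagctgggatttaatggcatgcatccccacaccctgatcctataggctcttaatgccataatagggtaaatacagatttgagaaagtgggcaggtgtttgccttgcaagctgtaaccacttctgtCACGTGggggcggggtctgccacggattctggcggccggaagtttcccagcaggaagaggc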

How the data were processed

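Per the labels' protocols, stranded libraries were made from rRNA-depleted total RNA of bulk tumours. The authors deposited whole-number read counts per gene, not normalized; per the submitters' processing notes they used Trimmomatic 0.32, STAR 2.3.0e, featureCounts 1.4.4 and mm10. Not given in the sources used here: the annotation release, the strand setting and how multi-mapping reads were treated. Counts were fitted in R 4.3.3 with edgeR 4.0.16 (filterByExpr, TMM, quasi-likelihood F-test, 12 tumours in 4 groups, 8 residual degrees of freedom, Benjamini-Hochberg over 19370 genes). SE is the absolute log2 difference over the square root of F. Exon lengths and positions come from GENCODE M21 (GRCm38). All pairs of replicates differed by more than sampling noise. The fit was tested on simulated data. Alternatives were other scalings and filters, DESeq2 1.42.0, limma-voom (limma 3.58.1), other sets of tumours and each tumour left out. Summing Phgdh with its copies was chosen after seeing the data. The members and lists were chosen with earlier results of these data known. Named were all members, up to 4 called genes of each list with the smallest p per comparison, and the 2 genes closest to each called member; Gm7901, Atf4 and Slc38a1's tumour values were added after their values were seen. Results for 1 gene of the folate list are not reported here.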

Additional observations from a re-analysis of the deposited data

Results flagged for a closer look

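The effect of selection differed between the p66 levels, by the interaction test of the edgeR fit, for 1 member and for the 11 genes named here, from the lists around the members, that reached a mean of at least 1 CPM in a group. This test called 12.4% of all genes. The ATF4 list had 6 of 26 genes called, of which only the 4 with the smallest p are named. Psat1 changed by -0.46 after p66Low and by 0.09 after p66High selection, an interaction of 0.55 (adjusted p = 0.0369). That call was lost in 10 of 12 fits without 1 tumour, with tumours sharing a title number summed (adjusted p = 0.103), with library-size scaling (0.101), without a filter (0.055) and without the 3 lymph node rich libraries (0.236). In the folate list the interaction was 0.60 for Mtrr and -0.83 for Mthfs. Among the genes of serine transport and use it was -2.90 for Slc38a1 and -0.50 for Sptlc2. For the ATF4 list it was 1.17 for Sesn2, 1.03 for Vldlr, 1.22 for Slc7a5 and 2.14 for Ddit4. Of the nucleotide genes, Adssl1 had 1.66, Cmpk1 -0.62 and Ctps2 -0.44. The adjusted p of these 11 genes lay between 0.00311 (Slc38a1) and 0.0477 (Adssl1). Of the 11, 8 lost their call in at least 1 of 12 fits without 1 tumour, Adssl1 in 11, Ctps2 in 10, Mtrr in 7 and Ddit4 and Slc7a5 in 6 each. The 3 that kept it were Sesn2, Vldlr and Slc38a1. Without the 3 lymph node rich libraries 9 lost it, Vldlr with a value of 0.57 (adjusted p = 0.217), and Slc7a5 and Slc38a1 kept it.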

How the results depend on the processing

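No paired analysis was possible because replicates carry no shared numbers across groups. Of 1420 member values under the alternatives, 1343 kept direction and side of the threshold. DESeq2 called 2549 genes between parental groups (1565 by edgeR; members 2), 2261 after p66High selection (1150; members 1) and 3 members over the 4 groups. Fits of 6 tumours called 1 member between parental groups, 2128 genes and 0 members after p66Low selection (3221 and 1) and 1 member after p66High selection. Scaling by library size called 0 members after p66Low selection and in the interaction, and testing without a filter 0 in the interaction. Summing tumours that share a title number called 908 genes between parental groups, 305 after p66High selection and, for the interaction, 1179 genes and 0 members. Without the 3 lymph node rich libraries the counts were 838, 705, 586 and 1075 in the 4 comparisons, 335 in the interaction and 2604 over the groups, and members called were 0 where Psat1 had been. The cause of these shifts was not tested.

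Leaving out 1 tumour gave between 871 and 1927 genes and 0 and 3 members between parental groups, 1545 (without p66Low parental replicate 3) to 3505 genes and 0 to 3 members after p66Low selection, 457 (without p66High parental replicate 2) to 1469 genes and 0 to 1 members after p66High selection, 2438 (without p66Low aggressive replicate 2) to 4502 genes between aggressive tumours, 1179 (without p66Low parental replicate 3) to 3278 genes and 0 to 3 members for the interaction, and 4053 to 6394 genes and 0 to 5 members over the 4 groups. The highest member counts came without p66Low parental replicate 2. Sign changes were limited to differences of members that had not passed: with upper-quartile scaling Psat1 between parental groups (0.0031) and Shmt1 (-0.0075) and Shmt2 (-0.0052) after p66High selection, with library-size scaling Psat1 (0.020), with limma-voom Psph between aggressive tumours (0.024), with summed tumours Shmt2 after p66High selection (-0.012) and Aldh1l2 between aggressive tumours (0.12), and without the lymph node rich libraries Mthfd2 after p66Low selection (-0.12) and Psph (0.13), Shmt2 (0.10) and Mthfd2 (0.029) between aggressive tumours. With 1 tumour left out, values crossed 0 for Psat1 (-0.14 to 0.062) and Shmt1 (-0.16 to 0.055) between parental groups, Mthfd2 (-0.0056 to 0.43) and Mthfd1l (-0.35 to 0.080) after p66Low selection, Psph (-0.19 to 0.057), Shmt1 (-0.040 to 0.14) and Shmt2 (-0.054 to 0.12) after p66High selection, Psph (-0.098 to 0.085), Mthfd1l (-0.27 to 0.38) and Aldh1l2 (-0.68 to 0.23) between aggressive tumours, and Psph (-0.0039 to 0.29) in the interaction.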
